A study of Mus musculus with 12 samples.

Results

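The heat shock proteins and their partner chaperones were followed in neutrophils from control spleens and from injured livers. The members were the GRCm38 protein-coding genes whose symbols begin with Hsp, Dnaj, or Cct and a digit, without Hspg2, plus Tcp1, Hsf1, Hsf2, Bag1 and Bag3. There were 87 such genes by symbol, and 64 of them had more than 1 CPM (counts on a gene relative to its library) in 3 or more of 12 libraries. These 64 were tested among 12488 genes that passed the same limit, out of 48709 listed.

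All cells were neutrophils of male C57BL/6N mice aged 8 to 10 weeks, sorted as Ly6Ghi Ly6Cint CD11b+ CD45+ after enrichment on anti-Ly6G beads. The control splenic neutrophils (n = 3 libraries) came from untreated mice at 0 hours. The 24-hour neutrophils (n = 4) and 72-hour neutrophils (n = 5) came from livers taken 24 and 72 hours after 1 intraperitoneal injection of carbon tetrachloride (CCl4, a hepatotoxin) at 1 mL/kg in corn oil. Each liver group differed from the control group in organ, injury, oil and tissue preparation. The livers were minced, digested with enzymes in warmed medium and passed over a Percoll gradient, and the spleens were only dissociated mechanically, so that these factors cannot be told apart in a comparison with spleen. Liver neutrophils of uninjured mice were not analysed here, and the 3 spleen libraries served as controls for both time points.

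Heat shock proteins bind unfolded proteins and keep them from aggregating. Hsp70 proteins hold and release short stretches of a client in a cycle driven by ATP, J proteins (the DNAJA, DNAJB and DNAJC families) deliver the client and trigger ATP cleavage, and nucleotide exchange factors reset the cycle. Hsp90 completes the folding of signaling proteins, the chaperonins fold actin, tubulin and mitochondrial proteins inside a closed ring, and heat shock factor 1 switches many of these genes on during proteotoxic stress.

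The counts need care before any of them is read as messenger RNA. The library kit keeps the strand of the RNA, and the strand option of the counting step is not given in the sources used here. Between 2.71% and 3.18% of the uniquely aligned reads of a library were counted on a gene, and 96.8% to 97.3% lay on no gene. Among the 20 most counted genes, 20 share exon bases with a gene on the opposite strand. Whether a count on a gene came from its own strand or from the opposite strand could therefore not be told. This holds also for members with no annotated gene opposite them. The values below are counts on a gene, not proven levels of its own transcript, and a low count does not prove a low transcript. Each called member is given with the gene that lies opposite it.

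The libraries held 1744084 to 2666718 counts on genes in control splenic neutrophils, 1781445 to 2017564 in 24-hour neutrophils and 1267089 to 3017403 in 72-hour neutrophils. After TMM scaling (edgeR's trimmed-mean factors), 1 CPM was worth between 1.37 and 3.23 counts, so that members under 5 CPM rest on a handful of reads. Control replicate 3 stood apart from control replicates 1 and 2 (chi-square per degree of freedom of 30.7 and 34, against 2.34 between the other two). The 72-hour replicates 1 to 3 stood apart from replicates 4 and 5 (16.6 to 31.4 across the split, against 5.63 between replicates 4 and 5). The 24-hour libraries also differed, at 7.55 between replicates 1 and 2 and 16.2 to 25.9 for all other pairs. Unaligned reads made up 1.91% and 1.98% of reads in 72-hour replicates 2 and 3 and at least 49.6% elsewhere. All of the 10 neutrophil markers were detected, and their summed level was 2070 to 9300 normalized CPM in spleen (median 9130), 1120 to 2760 at 24 hours and 2070 to 2710 at 72 hours. In the edgeR comparisons given below, 4 of the 10 were called at 24 hours and 6 at 72 hours against spleen, and 1 between 72 and 24 hours. Ltf averaged 1190, 2.1 and 6.75 in spleen, 24-hour and 72-hour neutrophils, while Cxcr2 averaged 327, 318 and 375. The summed level of 7 hepatocyte markers was 2.32 to 6.11 in spleen, 14.9 to 19.8 at 24 hours and 3.24 to 25.1 at 72 hours, and 5, 3 and 1 of them had no count in any library of the group. Ttr, a hepatocyte marker, had no count in any library. Macrophage markers summed to 90.3 to 152, 134 to 204 and 121 to 185 normalized CPM in the same order, largely on Csf1r, with C1qa and Clec4f at 0 throughout. B cell markers summed to 44.2 to 54, 25.5 to 61.2 and 24 to 45.2, nearly all of it on Cd79a, while T cell, erythroid and endothelial sums stayed at or below 11.7 in every library. The part of these markers in the results below was not tested.

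Stretches upstream of 3 members are shown first, because they carry the elements through which chaperone genes are classically switched on. Promoter windows of 300 bases (250 before the transcript start and 50 after it) were found in RefSeq (GRCm38.p6) for 71 of the 87 members. Hspa8, Hspa9, Hsp90aa1, Hsp90ab1 and Hsf1 were among those without a window and were not searched. The ER stress element, which recruits factors of the unfolded protein response, was searched on both strands as CCAAT and CCACG with 9 bases between them, and the heat shock element as 3 alternating units of GAA and TTC with 2 bases between units, starting with either. Capitals mark the matches. The Hspa5 window lies at chr2:34771840-34772139 on the plus strand and its match runs from 65 to 47 bases before the start. The Hsp90b1 window lies at chr10:86705395-86705694 on the minus strand and holds 2 matches, the first of them 212 bases before the start. The Hspe1 window lies at chr1:55087898-55088197 on the plus strand, and 2 overlapping matches begin 89 bases before the start.
Hspa5: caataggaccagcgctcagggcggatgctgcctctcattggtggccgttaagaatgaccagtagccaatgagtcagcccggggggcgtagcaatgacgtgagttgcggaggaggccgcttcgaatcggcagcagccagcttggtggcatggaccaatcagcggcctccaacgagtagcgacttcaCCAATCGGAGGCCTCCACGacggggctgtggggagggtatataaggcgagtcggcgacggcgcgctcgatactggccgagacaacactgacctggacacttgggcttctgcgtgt
Hsp90b1: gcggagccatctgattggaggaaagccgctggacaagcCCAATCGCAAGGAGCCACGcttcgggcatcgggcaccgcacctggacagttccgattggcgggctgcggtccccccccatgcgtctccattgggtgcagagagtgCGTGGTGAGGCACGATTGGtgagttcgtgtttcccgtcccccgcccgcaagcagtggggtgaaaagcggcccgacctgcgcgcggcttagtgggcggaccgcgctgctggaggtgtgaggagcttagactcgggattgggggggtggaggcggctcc
Hspe1: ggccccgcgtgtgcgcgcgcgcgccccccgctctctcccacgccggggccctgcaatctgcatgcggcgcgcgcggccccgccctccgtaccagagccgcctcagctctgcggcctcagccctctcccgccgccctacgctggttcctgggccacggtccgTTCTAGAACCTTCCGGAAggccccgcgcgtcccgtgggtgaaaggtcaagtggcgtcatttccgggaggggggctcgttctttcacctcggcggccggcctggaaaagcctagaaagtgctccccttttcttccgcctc

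Hspe1 and Hspd1, the mitochondrial co-chaperonin and chaperonin, are transcribed in opposite directions from overlapping first exons. RefSeq gives Hspd1 2 windows, and the same element lies in the window of the start further inside the gene (chr1:55087883-55088182) but not in that of the start further out (chr1:55088194-55088493). The 3-unit heat shock element was present for 4 members (Dnajb6, Hspd1, Hspe1 and Hsph1), or 5.63% of the members with a window, against 0.603% of all 32851 promoter windows. The ER stress element was present for 3 members (Dnajc3, Hsp90b1 and Hspa5), or 4.23% against 0.119%. The shorter 2-unit elements overlap the longer one and were more widespread: GAANNTTC was found for 17 members, 23.9% against 7.86% of all windows, and TTCNNGAA for 7 members, 9.86% against 8.52%. The member shares count genes with a match in any of their windows (71 genes, 90 windows), and the background shares count single windows. A gene with several windows has more chances of a match, so the 2 shares are not fully alike. Of the 17 members with GAANNTTC, 9 were tested and 8 fell under the limit on low counts, among them Bag3, Hsph1 and Hspb8. In the edgeR comparisons described next, 0 of the tested members with any of these elements were called, while DESeq2 called Dnaja1 and limma-voom called Hspe1 in 1 comparison each. Hspa8, which edgeR called, had no window and could not be counted here. Of the 9 with GAANNTTC, 2, 1 and 2 had an unadjusted edgeR p under 0.05 in the 3 comparisons, where 26.2%, 17.1% and 20.9% of all genes did. A match of letters is a description of the window and not a measured binding site.

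The members with many counts more often share exon bases with an opposite-strand gene. Of the 64 tested members, 22 (34.4%) share exon bases with a gene on the other strand, against 39.9% of all tested genes, another 6 lie opposite an intron or other stretch of a gene, and 36 lie opposite none. The median over members of the mean level was 23.1 CPM for the 22 and 4.54 CPM for the 42 others, or 5.22 and 1.2 CPM per kilobase of exon. Above a mean of 30 CPM, 11 of 16 members (68.8%) share exon bases, and at or below it 11 of 48 (22.9%). Of the 8 members called in any comparison, 5 share exon bases. The shares above and below 30 CPM, and among called genes, were not computed over all tested genes. The 20 most counted genes of the series all share exon bases as well, so these splits are not shown to be particular to the members. The chaperones best known in stressed cells were mostly among the low ones: Hspa1a and Hspa1b, the stress-inducible Hsp70 pair, had at most 7 and 8 counts in any library, and Hsph1 and Bag3, equally classic heat shock targets, were not testable with 9 counts and 1 count in all.

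**Figure D1:**
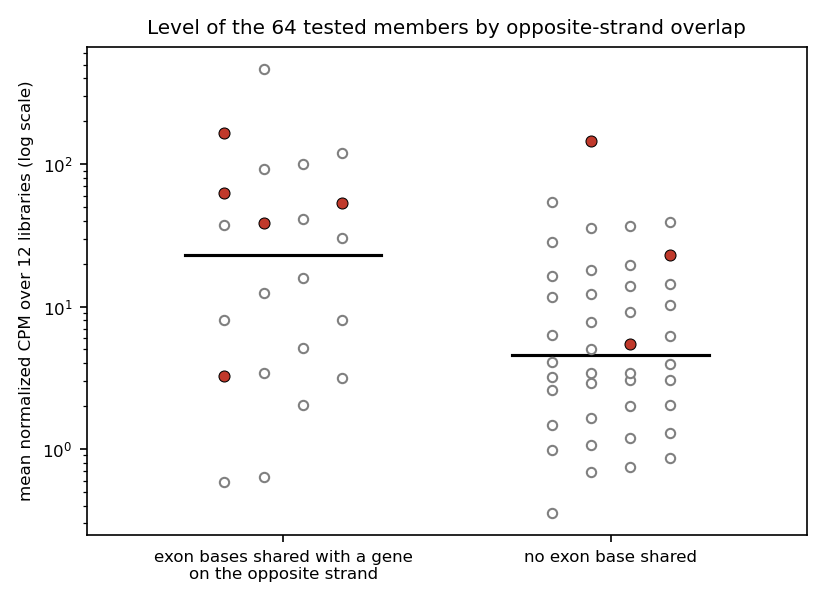
Mean normalized CPM over the 12 libraries (vertical log axis) of the 64 tested members, split by whether they share exon bases with a gene on the opposite strand. Each point is 1 member, filled points are the 8 called members and bars are medians, at 23.1 CPM for the 22 that share bases and 4.54 CPM for the 42 that do not.

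Few members changed. Of the 8 that did in any comparison, 6 were J proteins, which were also the larger part of the 64 tested (3 DNAJA, 12 DNAJB and 18 DNAJC). A gene was called at a Benjamini-Hochberg adjusted p below 0.05 in edgeR's quasi-likelihood test over all 12488 genes and a log2 fold change of 0.5 or more in either direction. In 24-hour neutrophils 5 of 64 members (7.81%) were called against spleen, 2 higher and 3 lower, where 9.75% of all tested genes were called (5.35% higher and 4.4% lower). In 72-hour neutrophils 4 of 64 (6.25%) were called against spleen, 1 higher and 3 lower, with 5.33% of all genes called (2.63% higher and 2.71% lower). Between 72 and 24 hours 1 member (1.56%) was called, higher at 72 hours, with 4.49% of all genes called (1.65% higher and 2.84% lower). The called shares lay near those of all genes in the comparisons with spleen. The 24-hour count fell to 1 without control replicate 1, without control replicate 2 or without 24-hour replicate 4, and to 3 without 24-hour replicate 2. The 72-hour count fell to 2 without control replicate 1 or 2, or without 72-hour replicate 2 or 3.

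The log2 fold change was above 0 for 22, 29 and 41 of the 64 members at 24 hours, at 72 hours and between 72 and 24 hours, and for 41.2%, 48.7% and 59% of all genes. The median log2 fold change of the members was -0.47 at 24 hours and -0.16 at 72 hours against spleen, and 0.35 between 72 and 24 hours. Over all tested genes the medians were -0.23, -0.02 and 0.18. With members near zero counts set at the bound that 3 counts give, or left out where both groups were under it, the medians were -0.38, -0.06 and 0.35. Groups did not overlap for 16, 8 and 11 of the 64 members in the 3 comparisons, where they did not overlap for 22.8%, 12% and 9.51% of all genes. Among the 12 Hsp70 and Hsp110 members, 9 had a positive log2 fold change between 72 and 24 hours and the median was 0.63, although only Hspa8 was called. The summed level of the 12 Hsp70 members was 94.6, 109, 79.2 and 110 normalized CPM in the 4 libraries at 24 hours and 192, 151, 210, 135 and 121 in those at 72 hours, with spleen at 133, 137 and 123. These sums did not overlap between the liver groups, but without Hspa5 and Hspa8 the remaining 10 members summed to 32.8 to 55.5 at 24 hours and 46.7 to 66.9 at 72 hours, which overlap. Sums of other subfamilies lay apart from spleen. DNAJA, DNAJB and small heat shock protein sums were lower in both liver groups. At 24 hours DNAJC sums were higher than in spleen, and those of factors and regulators lower. Chaperonin and Hsp90 sums overlapped spleen at both times.

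**Figure D2:**
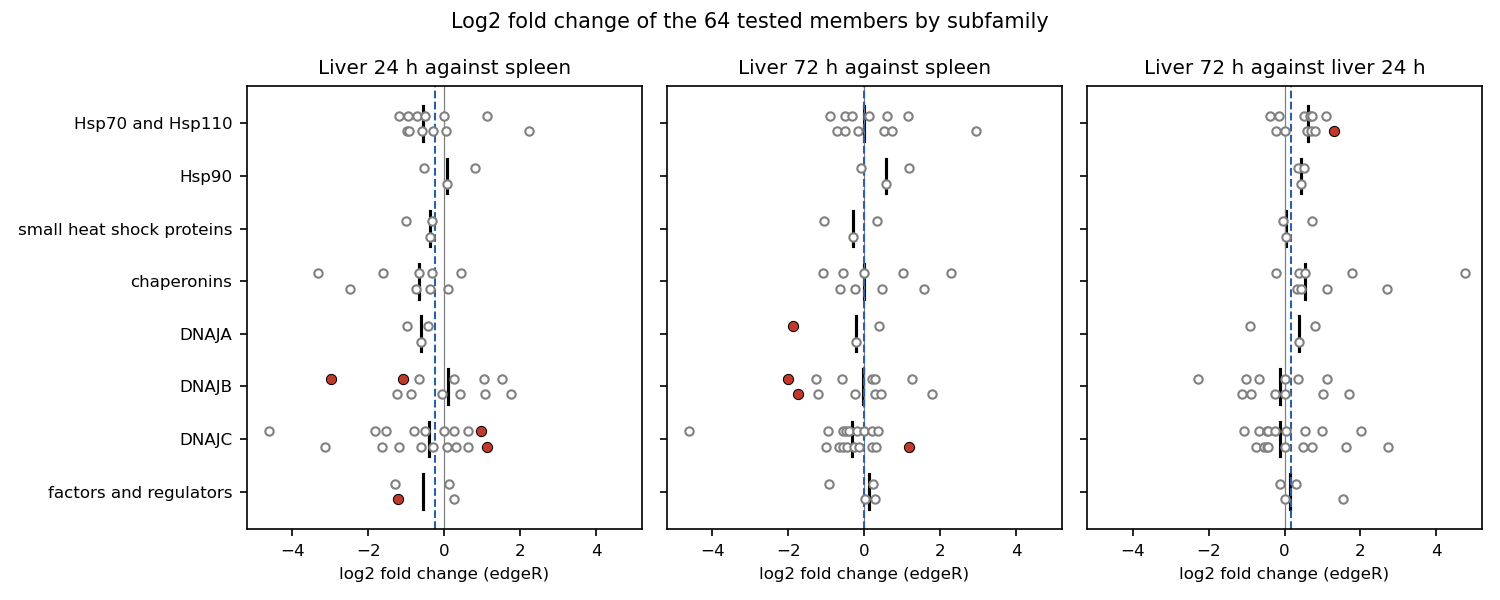
Log2 fold change from edgeR (horizontal axis) of the 64 tested members by subfamily (rows) in the 3 comparisons. Open points were not called and filled points were, black bars are subfamily medians and the dashed line is the median of all tested genes (-0.23, -0.02 and 0.18). The called members lie mostly in the DNAJ rows, which also hold the larger part of the tested members.

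Hsp70 proteins come first. Hspa8, the constitutive Hsc70 (chr9:40800984-40810087, plus strand), had 30.6, 24.3 and 9.97 normalized CPM in spleen, 15.8, 15.6, 8.49 and 12.4 at 24 hours and 43.4, 26.6, 46.4, 17.4 and 27.9 at 72 hours. The 72-hour libraries lay above the 24-hour libraries without overlap, while the spleen libraries spanned both. The log2 difference between 72 and 24 hours was 1.31 ± 0.37 (SE; edgeR adjusted p = 0.0465), and against spleen Hspa8 stood at -0.71 ± 0.41 at 24 hours (adjusted p = 0.281) and 0.60 ± 0.38 at 72 hours (adjusted p = 0.473). The call lay close to the threshold: it was lost in 14 of 24 alternatives, with an adjusted p of 0.162 without 72-hour replicates 2 and 3 and 0.126 without 72-hour replicate 3 alone. No gene lies opposite Hspa8.

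Hspa5, the ER chaperone BiP, had 47.3, 46 and 33.1 normalized CPM in spleen, 46, 55.2, 29.7 and 42.3 at 24 hours and 86.7, 58.7, 96.6, 60.4 and 46.7 at 72 hours. The 72-hour libraries were mostly higher but reached down into the other groups, and the difference of 0.73 ± 0.29 against spleen and 0.69 ± 0.27 against 24 hours did not pass the test (edgeR adjusted p = 0.168 and 0.14). Hspa9, the mitochondrial Hsp70, averaged 23.8 ± 18.4 (SD, n = 3) in spleen, 12.8 ± 10.2 (n = 4) at 24 hours and 18.7 ± 9.65 (n = 5) at 72 hours, with wide overlap. Hspa1a was at 0 to 2.25 normalized CPM in all 12 libraries, and Hspa1b at 0 to 0.362 in spleen, 0 to 3.15 at 24 hours and 0 to 2.48 at 72 hours, which is too few counts to show a difference at this depth. Hspa1a and Hspa1b are near-identical copies whose reads the counting step can lose or split. Hspa4, an Hsp110 relative that resets Hsp70 and was named after its values were seen, had 15.4 to 28.3 normalized CPM in spleen, 8.2 to 14.6 at 24 hours and 16 to 20.1 at 72 hours. The 24-hour group lay wholly below both others, yet the differences missed the threshold (24 hours against spleen -0.96 ± 0.35, adjusted p = 0.0881; 72 against 24 hours 0.79 ± 0.32, adjusted p = 0.162).

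The 3 Hsp90 members were well covered and 0 were called by edgeR, with 1, 1 and 0 at an unadjusted p under 0.05, while DESeq2 called Hsp90aa1 at 72 hours. Hsp90aa1, the stress-responsive cytosolic form, had 9.28, 12.7 and 11.3 normalized CPM in spleen, 16.4, 30, 10.6 and 21.2 at 24 hours and 27.7, 31.1, 29.7, 16 and 19.5 at 72 hours. All of the 72-hour libraries lay above the spleen libraries, and the log2 difference of 1.17 ± 0.37 gave an adjusted p of 0.0686 in edgeR. Hsp90ab1, the constitutive form, averaged 42.5 ± 12 (SD, n = 3), 29.5 ± 6.48 (n = 4) and 39.7 ± 5.39 (n = 5) in spleen, 24-hour and 72-hour neutrophils, and its groups overlapped in every comparison. Hsp90b1, the ER form GRP94, averaged 24.9 ± 7.63, 26.2 ± 5.95 and 36.8 ± 10.8 in the same groups. Hsp90b1 shares 415 exon bases with 1810014B01Rik, which carried far more counts (467 ± 98, 772 ± 140 and 635 ± 259 normalized CPM). Per length, Hspa5 and Hsp90ab1 had 12.8 and 12.3 CPM per kilobase of exon, Hspa8 5.4 and Hsp90aa1 4.99.

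**Figure D3:**
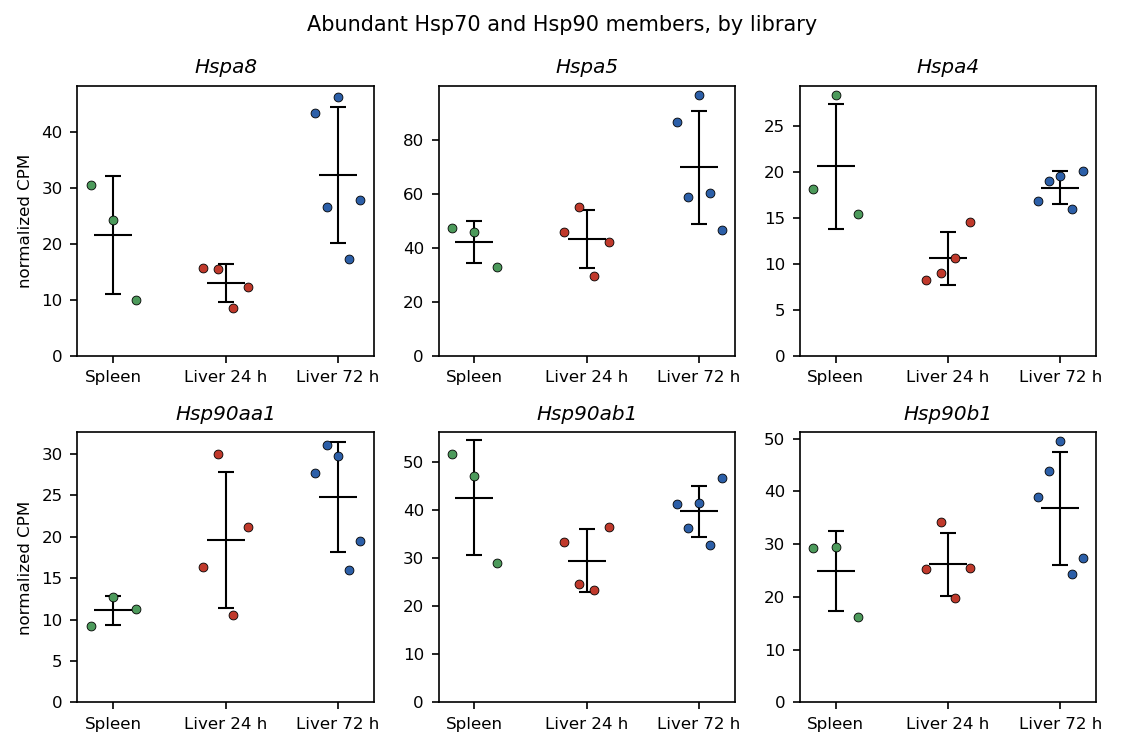
Normalized CPM (vertical axes, from 0) of 6 abundant Hsp70 and Hsp90 members in each of the 12 libraries, by group; bars are the mean and SD. Hspa8 is the one member here called in a comparison, with its 72-hour libraries above its 24-hour libraries, and Hspa4 dips at 24 hours without passing the test.

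Of the small heat shock proteins, which hold unfolded clients without ATP, 3 were tested and 0 were called by edgeR, DESeq2 or limma-voom, with 1, 1 and 0 at an unadjusted p under 0.05. Hspb1 (Hsp27) averaged 7.41 ± 3.32, 5.99 ± 3.44 and 5.8 ± 3.16 normalized CPM in spleen, 24-hour and 72-hour neutrophils. Hspb9 had 20.9, 16.3 and 12.2 in spleen, 6 to 10.2 at 24 hours and 4.15 to 10.4 at 72 hours. All liver libraries lay below all spleen libraries for Hspb9, but the differences of -1 ± 0.42 and -1.05 ± 0.39 did not pass (edgeR adjusted p = 0.13 and 0.13).

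Of 9 chaperonin members, 0 were called by edgeR in any comparison, and 2, 2 and 3 of them had an unadjusted p under 0.05. DESeq2 called 0 and limma-voom 1, Hspe1 between 72 and 24 hours. Tcp1, a subunit of the cytosolic TRiC ring, had 148, 162 and 73.6 normalized CPM in spleen, 88.2 to 132 at 24 hours and 71.6 to 94.4 at 72 hours. The third spleen library sat at the liver level, and the 72-hour difference of -0.57 ± 0.25 did not pass (edgeR adjusted p = 0.234). It stayed uncalled in 22 of 23 alternatives, with an adjusted p up to 0.705 without control replicate 2. Only without control replicate 3 did it pass (-0.86 ± 0.24, adjusted p = 0.0297), and that is the control library nearest to the liver values. Tcp1 shares 712 exon bases with opposite-strand genes, chiefly Acat3 at chr17:12924260-12924830, which carried 72.6 ± 13.5, 69.7 ± 23.1 and 79.9 ± 18 normalized CPM. Hspd1 ranged from 4.82 to 8.7 in spleen, 0 to 24.1 at 24 hours and 3.47 to 43 at 72 hours, and Hspe1 from 1.45 to 5.1, 0 to 5.84 and 3.47 to 7.6. Both had their highest group mean at 72 hours (18.9 ± 15 and 5.31 ± 1.76, SD, n = 5), with no call against spleen (adjusted p = 0.276 and 0.587) or against 24 hours (0.356 and 0.216). The first 112 bases of Hspd1 and Hspe1 overlap on opposite strands (chr1:55088132-55088243).

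The J proteins held 6 of the 8 called members and were the larger part of those tested. At 24 hours 2 of 12 DNAJB (16.7%) and 2 of 18 DNAJC members (11.1%) were called against spleen, with 9.75% of all genes. At 72 hours 1 of 3 DNAJA (33.3%), 2 of 12 DNAJB (16.7%) and 1 of 18 DNAJC members (5.56%) were called, with 5.33% of all genes. Between 72 and 24 hours 0 were called in each class. Among class A members, Dnaja3, the mitochondrial Tid1, had 88.1, 90.6 and 41.2 normalized CPM in spleen, 54.9, 33, 36.1 and 23.3 at 24 hours and 17.9, 14.5, 13.9, 24.3 and 29.2 at 72 hours. Every 72-hour library lay below every spleen library, and the 24-hour libraries fell in between and overlapped both. Dnaja3 fell by 1.89 ± 0.33 on the log2 scale at 72 hours (edgeR adjusted p = 0.000851) and this call held in every alternative that contained Dnaja3. The fit over genes with no opposite-strand exon did not contain it. At 24 hours the value was -0.99 ± 0.35 (adjusted p = 0.0744). Dnaja3 (chr16:4639989-4707695, plus strand) shares 153 bases with Coro7 (chr16:4675626-4675778), which carried 8.31 ± 3.08, 4.9 ± 2.68 and 6.89 ± 2.61 normalized CPM in spleen, 24-hour and 72-hour neutrophils. Dnaja1, the main cytosolic partner of Hsc70, had 112, 112 and 116 in spleen, 59.1 to 88.3 at 24 hours and 86 to 116 at 72 hours. The 24-hour libraries lay below all spleen libraries, but the difference of -0.62 ± 0.23 did not pass (edgeR adjusted p = 0.0949). Dnaja1 shares 857 exon bases with opposite-strand genes, chiefly Smu1 at chr4:40736542-40737149. Smu1 carried 18 ± 8.78, 18.7 ± 9.22 and 14.1 ± 2.12 normalized CPM in spleen, 24-hour and 72-hour neutrophils.

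Dnajb13, a J protein known from the axoneme of sperm and cilia, showed the most significant change of any member. It had 137, 119 and 99.7 normalized CPM in spleen, 54.2, 76.8, 51.6 and 40.9 at 24 hours and 35.2, 37.3, 19.2, 39.6 and 46.7 at 72 hours. Both liver groups lay entirely below spleen, and they overlapped each other. The log2 fold change was -1.08 ± 0.29 at 24 hours (edgeR adjusted p = 0.0201) and -1.74 ± 0.28 at 72 hours (adjusted p = 0.000335). The 72-hour call held in every alternative that contained Dnajb13, which the fit over genes with no opposite-strand exon did not. At 24 hours 3 of 12 fits with a library left out lost the call (up to adjusted p = 0.101 without control replicate 1). The last 305 bases of Dnajb13 (chr7:100501716-100502020, minus strand gene) lie on exons of Ucp2, a mitochondrial carrier gene on the plus strand, which carried 107 ± 8.41, 82.4 ± 25.3 and 80.4 ± 15.5 normalized CPM. Whether the counts on Dnajb13 are its own transcript was not tested.

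Dnajb14 and Dnajb7 were called at lower levels, and DESeq2 alone also called Dnajb3 at 24 hours against spleen. Dnajb14, an ER membrane J protein, had 7.42, 7.61 and 5.79 normalized CPM in spleen, 2.52, 0, 0.707 and 0 at 24 hours and 2.71, 1.38, 1.86, 6.95 and 1.95 at 72 hours. These are 16 to 21 counts per spleen library against 0 to 4 at 24 hours, and the groups did not overlap (-2.98 ± 0.85, edgeR adjusted p = 0.029). The call was lost in 5 of 12 fits with a library left out, up to adjusted p = 0.0899 without control replicate 2. It shares 99 bases with Gm25920 (chr3:137912990-137913088), which carried 32.3 ± 5.69, 11.7 ± 3.1 and 10.8 ± 5.69 normalized CPM. Dnajb7 had 8.35, 7.61 and 14.8 in spleen, 6.94, 6.6, 7.78 and 0.729 at 24 hours and 4.34, 1.04, 2.17, 3.47 and 1.95 at 72 hours. All 72-hour libraries lay below all spleen libraries (-2.02 ± 0.57, adjusted p = 0.0401), and the call was lost in 6 of 12 fits with a library left out (up to 0.16 without control replicate 3) and without 72-hour replicates 2 and 3 (0.286). Dnajb7 lies within the span of Xpnpep3 on the other strand and shares no exon base with it. Dnajb1 (Hsp40), the stress-inducible partner of Hsp70, averaged 5.39 ± 2.25, 6.34 ± 2.95 and 6.49 ± 2.79 and was not called.

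Of 18 class C members, edgeR called 2 in any comparison, both higher than in spleen. Over all genes, 5.35% were called higher at 24 hours and 2.63% at 72 hours. DESeq2 also called Dnajc5 and Dnajc14 at 24 hours, and Dnajc19 between 72 and 24 hours. By limma-voom only Dnajc19 was called at 24 hours, and Dnajc8 and Dnajc15 at 72 hours. Dnajc8, a J protein tied to splicing, had 66.8, 66.3 and 94.5 normalized CPM in spleen, 105, 122, 202 and 237 at 24 hours and 207, 240, 202, 105 and 104 at 72 hours. Every liver library lay above every spleen library, and the liver groups overlapped. It rose by 1.13 ± 0.33 at 24 hours (edgeR adjusted p = 0.0332) and 1.18 ± 0.32 at 72 hours (adjusted p = 0.0314). limma-voom did not make the first call (1.05 ± 0.34, adjusted p = 0.0571). Leaving out a library lost it in 4 of 12 fits (up to 0.132, without control replicate 1 or 2) and lost the second call in 5 of 12 (up to 0.171, without control replicate 2) and without 72-hour replicates 2 and 3 (0.243). Dnajc8 (chr4:132535550-132553742, plus strand) shares no exon base with an opposite-strand gene, has a small nuclear RNA gene, Gm24762, within its span on the other strand, and had the highest level per length of any member, 57.2 CPM per kilobase.

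Dnajc19, which drives protein import at the mitochondrial inner membrane, had 123, 132 and 94.9 normalized CPM in spleen, 214, 225, 242 and 230 at 24 hours and 170, 160, 143, 103 and 147 at 72 hours. The 24-hour libraries lay above all others, and the 72-hour libraries overlapped spleen. It rose by 0.96 ± 0.23 at 24 hours (edgeR adjusted p = 0.00979), a call that survived each library left out in turn (up to adjusted p = 0.04). At 72 hours it stood at 0.31 ± 0.22 against spleen (adjusted p = 0.534) and at -0.66 ± 0.20 against 24 hours (adjusted p = 0.0586). Dnajc19 shares 178 bases with Fxr1 (chr3:34056330-34056416 and chr3:34058024-34058114), which carried 8.98 ± 2.53, 5.52 ± 2.83 and 8.81 ± 2.52 normalized CPM. Dnajc1, an ER J protein that docks BiP, had the most counts of all members, at 448 ± 75.1 (SD, n = 3), 555 ± 56.1 (n = 4) and 404 ± 52.9 (n = 5). The 72-hour libraries lay below the 24-hour libraries (-0.46 ± 0.18, adjusted p = 0.146). Dnajc1 shares 749 exon bases with Mllt10, at 55 ± 14.1, 34.5 ± 4.37 and 38.4 ± 4.87 normalized CPM.

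Dnajc15, a mitochondrial J protein related to Dnajc19 and named after its values were seen, passed the limit on low counts through spleen alone. It had 4, 4 and 3 counts in the spleen libraries and 0 in all 9 liver libraries, and was not called by edgeR (adjusted p = 0.111 and 0.087), while limma-voom called it at 72 hours. It had to differ to be tested at all, and a count of 0 allows up to 3 counts per library, so no fold change is given.

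**Figure D4:**
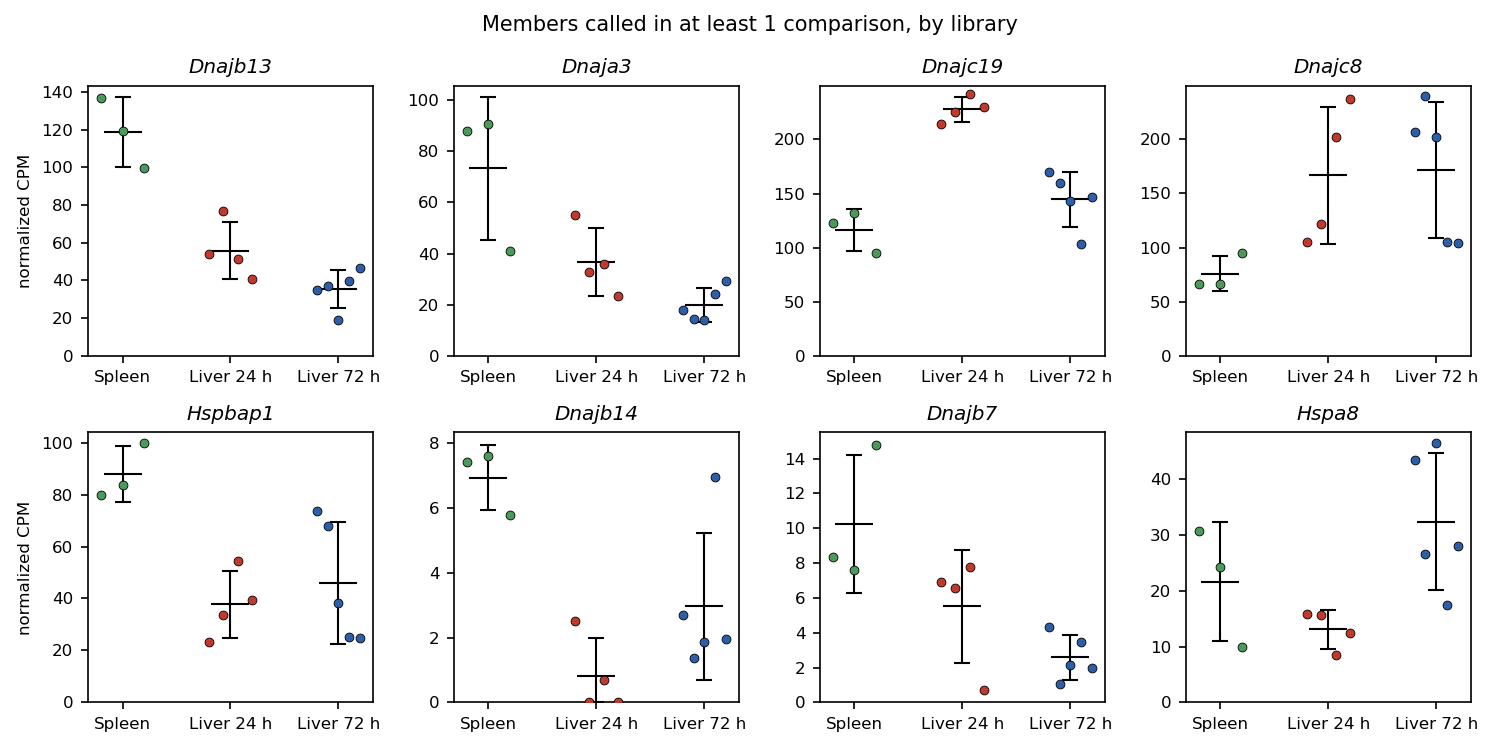
Normalized CPM (vertical axes, from 0) in each of the 12 libraries for the 8 members called in at least 1 comparison, by group; bars are the mean and SD. Dnajb13 and Dnaja3 lie lower in 72-hour liver than in spleen without overlap, Dnajc19 peaks at 24 hours, and Dnajc8 and Hspbap1 split within the 72-hour group.

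The factors that regulate these chaperones held 1 call. Hsf1, the main transcription factor of the heat shock response, averaged 24.8 ± 7.4, 29.8 ± 6.67 and 30 ± 8.68 normalized CPM in spleen, 24-hour and 72-hour neutrophils, and Hsf2 averaged 11.5 ± 4.34, 12.4 ± 7.62 and 11.2 ± 5.49, with adjusted p of at least 0.663 in every comparison. Bag1, an Hsp70 exchange factor, had 15.3, 10.9 and 5.47 in spleen, 2.52 to 8.02 at 24 hours and 6.49 to 20.1 at 72 hours, and was not called (72 against 24 hours 1.54 ± 0.51, adjusted p = 0.084). Hspbap1, which encodes a protein that binds Hsp27, had 79.8, 83.7 and 100 in spleen, 23.3, 33.6, 54.5 and 39.4 at 24 hours and 73.7, 68, 38.4, 25 and 24.7 at 72 hours. Every liver library lay below every spleen library. It fell by 1.22 ± 0.36 on the log2 scale at 24 hours (edgeR adjusted p = 0.0349; lost in 6 of 12 fits with a library left out, up to 0.097 without 24-hour replicate 1), and the 72-hour value of -0.92 ± 0.34 did not pass (adjusted p = 0.128). It shares 430 bases with Gm26838 (chr16:35805947-35806376), which carried 13.2 ± 13.6, 24 ± 9.31 and 16 ± 6.91 normalized CPM.

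The split within the 72-hour group ran through the members too. Replicates 1 to 3 all lay above replicates 4 and 5 for 17 of 64 members (26.6%, against 18.2% of all tested genes) and below them for 6 (9.38%, against 17.8%). Among members chosen for this split after their values were seen, Dnajb12, an ER membrane J protein, averaged 26.3 normalized CPM in replicates 1 to 3 and 1.99 in replicates 4 and 5. Its 4 libraries at 24 hours had 10.2 to 22.6 and its spleen libraries 3.99 to 5.57, so that replicates 4 and 5 lay below spleen and replicates 1 to 3 within or above the 24-hour range. Dnajb3 averaged 52.2 and 17.2, Hspa9 25.4 and 8.5, Hspbap1 60.1 and 24.8 and Dnajc8 216 and 105 in the same 2 sets of libraries. The 2 sets come from 1 labelled group, and no label separates them.

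The 23 members that were not tested had at most 6 counts in any library and 11 in all, and 8 of them had no count in any library. They include Hsph1 and Bag3, the co-chaperones Dnaja4 and Hspbp1, all of Hspb2, Hspb3, Hspb7, Hspb8 and Hspb11, and 10 class C J proteins.

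A list of 48 genes that work beside the members, of which 41 were tested, had few calls. By edgeR it had 0 members higher and 1 lower at 24 hours, 1 higher and 0 lower at 72 hours, and 2 higher and 1 lower between 72 and 24 hours, which is 2.44%, 2.44% and 7.32% of the list, where 9.75%, 5.33% and 4.49% of all genes were called. The median log2 fold changes were -0.47, 0.41 and 0.91, with all genes at -0.23, -0.02 and 0.18. Calls by another tool alone in the comparisons with spleen were Ppp1r15a at 24 hours (DESeq2) and Chordc1 at 72 hours (limma-voom). DESeq2 also called St13 and Bag6 between 72 and 24 hours. Pfdn5, a subunit of the prefoldin that hands clients to TRiC, had 12.1, 13.8 and 9.33 normalized CPM in spleen, 3.15, 1.2, 2.12 and 0 at 24 hours and 6.91 to 13.2 at 72 hours. It was lower at 24 hours than in spleen without overlap (-2.79 ± 0.59, edgeR adjusted p = 0.00375) and higher again at 72 than at 24 hours (2.41 ± 0.56, adjusted p = 0.0163). Ppp1r15a, the GADD34 phosphatase subunit that restarts translation after stress, had 4.18, 5.07 and 7.07 in spleen, 11.4, 10.2, 22.6 and 32.8 at 24 hours and 48.3, 96.4, 150, 18.8 and 20.1 at 72 hours. It was higher at 72 hours than in spleen (3.61 ± 0.63, adjusted p = 0.000844) and than at 24 hours (1.83 ± 0.51, adjusted p = 0.0426, a call that limma-voom did not make), with the 72-hour replicates 4 and 5 again apart from the rest. Stip1, the Hop protein that joins Hsp70 to Hsp90, was lower at 72 than at 24 hours (136 to 273 against 320 to 378 normalized CPM, -0.79 ± 0.21, adjusted p = 0.0389). Of 8 tested ER folding genes, 0 were called by edgeR in any comparison, with 1, 2 and 3 at an unadjusted p under 0.05. DESeq2 called 2 of them, Calr and P4hb, between 72 and 24 hours, and limma-voom called 0.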

How the data were processed

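RNA from sorted mouse neutrophils was sequenced in 12 libraries. The authors aligned paired reads of a stranded library kit to GRCm38 (STAR 2.7.9a in the submitters' processing notes), assigned them to genes with HTSeq-count and deposited the whole-number counts, neither normalized nor filtered. The 5 summary rows of the table (reads on no gene, ambiguous, of low quality, unaligned or aligned to several places) entered neither library sizes nor tests. Every count column was mapped to a sample by its name.

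The counts were analysed in R 4.3.3. Genes above 1 CPM in 3 or more libraries were kept and scaled by TMM, and all 3 comparisons came from 1 quasi-likelihood fit of edgeR 4.0.16 over the 12 libraries, a test chosen for counts (the study used limma-voom, run here as an alternative with limma 3.58.1; DESeq2 1.42.0 was another). Standard errors are the fold change divided by the root of the F statistic. Normalized CPM are counts divided by the TMM-scaled library size. The procedure was tested on simulated data. Exon overlap came from the GENCODE annotation of GRCm38, matched by gene identifier for 48349 of 48709 genes, and promoter windows from RefSeq.

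The members and lists were chosen with earlier results of these data known. The text names members called in any comparison, the member with most counts of each subfamily, a set of textbook chaperones, and called genes of the partner list; other names are marked as chosen after their values were seen or belong to the promoter search, the untested members, or calls of another tool. The labels number the replicates within a group and do not say whether mice were pooled, so p-values measure the spread between these libraries. No 2 libraries of a group agreed within sampling noise. Alternatives were other scalings, tests, filters and limits, fits of 2 groups, genes without an opposite-strand exon, a replicate block, and leaving out libraries. Counting intervals and floors (3 counts for a count of 0) cover counting error only.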

Additional observations from a re-analysis of the deposited data

Results flagged for a closer look

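In groups of 4 or 5 libraries, single libraries lay far from the others for 6 of 52 groups checked. The rule flags about 1 in 20 by chance where values spread normally. Some groups hold only low counts, as for Hspa1b and Hspe1, so that rate cannot be assumed here. Dnajb1 had 11.4 normalized CPM in 72-hour replicate 1, with the nearest library at 6.19. Dnajb14 had 6.95 in 72-hour replicate 4, with the nearest at 2.71. Dnajb7 had 0.729 in 24-hour replicate 4, with the nearest at 6.6. Hspa1b had 3.15 in 24-hour replicate 1 and 0 in the other 24-hour libraries. Hspe1 had 5.84 in 24-hour replicate 4, with the nearest at 0.631. Tcp1 had 132 in 24-hour replicate 3, with the nearest at 91.5. Of these 6 values, 2 come from 24-hour replicate 4, in which 0.227% of uniquely aligned reads were ambiguous against 0.0197% to 0.0368% elsewhere; the part of that in these values was not tested.

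Hspa8 was flagged for its difference between 72 and 24 hours in edgeR, 1.31 on the log2 scale (adjusted p = 0.0465). This is the comparison already given above and not a separate result. The call was lost in 14 of 24 alternatives, limma-voom among them. Neither liver group was called against spleen for Hspa8 (edgeR adjusted p = 0.281 at 24 hours and 0.473 at 72 hours).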

How the results depend on the processing

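The counts of called members moved more than the medians. The fit over genes with no opposite-strand exon holds 42 of the 64 members, of which 1, 2 and 1 were called in the 3 comparisons when all genes were fitted. At 24 hours against spleen the 5 calls became 9 with the DESeq2 Wald test, 9 without a filter, 2 over genes with no opposite-strand exon, and 1 to 7 with a library left out. At 72 hours against spleen the 4 calls became 8 without a filter, 2 over genes with no opposite-strand exon, 2 without 72-hour replicates 2 and 3, and 2 to 6 with a library left out. Between 72 and 24 hours the 1 call became 2 with the DESeq2 Wald test, without a filter and with filterByExpr, 0 over genes with no opposite-strand exon and without 72-hour replicates 2 and 3, and 0 to 2 with a library left out. With DESeq2 size factors or upper-quartile factors the 1 call between 72 and 24 hours was Dnajc19, lower, in place of Hspa8, higher. Medians of the members ranged from -0.61 to -0.28, from -0.20 to -0.02 and from 0.22 to 0.36 with a library left out. Of 78 fold changes of named members, 0 reversed among the called ones, and 9 of 68 that were not called passed in some alternative. With the replicate number as a block, 7, 6 and 1 members were called; the pairing of numbers is not given by the labels, deviations of same-numbered libraries correlated at -0.116 to 0.13, and Dnajb7 at 72 hours was the one call lost (adjusted p = 0.146). Members under 5 CPM rest on few counts, which limits what could be called.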
